A study of Mus musculus with 18 samples.

Results

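mmu-miR-140-3p, mmu-miR-140-5p, mmu-miR-455-3p and mmu-miR-455-5p are the mature products of 2 miRNA genes best known from cartilage, and their levels in mouse embryonic fibroblasts (MEF) and B cells are described here. They were taken by name, with earlier results of these data known, and are 4 of the 1367 mature miRNAs listed in any of the 5 deposited tables. All 4 were listed in every table, and all 4 passed the minimum mean of 10 normalized counts there. A normalized count is a number of reads divided by 1 scaling factor per library.

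Small RNA was sequenced from cells that differ in miR-17~92, a cluster of oncogenic miRNAs. In the first MEF set the cluster was overexpressed (OV), deleted (d/d) or floxed (fl/fl), with 3 libraries each. In the second MEF set all cells were d/d and received either miR-290~295, a cluster of embryonic stem cell miRNAs, or an empty plasmid (Empty), again with 3 libraries each. Splenic B cells with OV, d/d or fl/fl miR-17~92 gave 1 library each. The labels give Eu-myc mice as the strain of every library. That name is used for mice in which Myc is driven by the immunoglobulin heavy chain enhancer, which is active in B lineage cells. The design text calls the B cells isogenic and says that the MEF were studied similarly; the labels state neither ages nor what drives OV nor how the deletion was made. Nothing says that replicates came from separate cultures or animals, so p-values measure the spread between these libraries, which may be technical.

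A miRNA hairpin is cut from a longer transcript by Drosha and then by Dicer, which leaves a duplex of a 5p and a 3p strand, and usually 1 strand is loaded into Argonaute while the other decays. miR-140 lies in an intron of Wwp2, a ubiquitin ligase gene, and is strongly expressed in chondrocytes, where the transcription factor Sox9 drives it. Mice without miR-140 are small and lose articular cartilage early, and the aggrecanase gene Adamts5 is a known target of miR-140-5p. miR-455 lies in an intron of Col27a1, which encodes a fibrillar collagen of cartilage, and both of its strands are reported to repress the hypoxia factor gene Epas1. Neither fibroblasts nor B cells are cartilage, so the levels below come from cells outside the tissue for which these miRNAs are known.

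The RefSeq sequences (GRCm38.p6) show which bases could direct each strand to its targets. The seed, bases 2 to 8 from the 5′ end, is in capitals in the mature strands, and capitals mark the 3p strand within the hairpin of miR-140.
miR-140-3p: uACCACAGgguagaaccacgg
miR-455-3p: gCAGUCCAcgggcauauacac
miR-455-5p: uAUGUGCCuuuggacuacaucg
miR-140 hairpin: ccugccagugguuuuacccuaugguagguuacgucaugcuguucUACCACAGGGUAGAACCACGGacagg
A mature sequence was found for 3 of the 4 members and for 1153 of the 1367 listed miRNAs. The 3 seeds differ from each other. Among the listed miRNAs with a sequence, miR-497b had the seed of miR-140-3p and miR-5129-3p had that of miR-455-5p. No other had that of miR-455-3p. miR-497b lay between 15.1 and 245 normalized counts over all libraries, and miR-5129-3p between 6.72 and 37.5, far below the members whose seeds they share.

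The Mir140 gene spans chr8:107551244-107551313 on the plus strand (GRCm38), in intron 16 of the 24-exon reference transcript of Wwp2. Of 4 Wwp2 transcripts that span it, 1 has an exon there. Mir455 spans chr4:63256851-63256932 on the plus strand, in intron 10 of the 61-exon reference transcript of Col27a1, and no exon of its 4 spanning transcripts overlaps it.

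Each library of the first MEF set had 17191892 to 24920911 reads on listed miRNAs, each of the second 43164128 to 58911475, and each B cell library 10203586 to 10612256. The miR-17~92 strands summed to 384076 to 460467 normalized counts in OV MEF, 1419 to 1709 in d/d MEF and 67778 to 97384 in fl/fl MEF, which matches the labels. In B cells the sums were 4961770 in OV, 31768 in d/d and 1256360 in fl/fl. The miR-290~295 strands summed to 769474 to 902627 in MEF given that cluster and to 1580 to 2065 in Empty MEF. The 6 miR-17~92 strands listed in this second set summed to 129 to 166 with miR-290~295 and to 648 to 972 with Empty, without overlap. These 2 groups thus also differed in what was counted as miR-17~92, and its part in their other differences was not tested. RPM is a miRNA's share of the reads on listed miRNAs of its library, multiplied by 1000000. Fibroblast marker miRNAs, 6 of 6 listed, summed to 58927 to 67296 RPM in OV MEF, 70175 to 79743 in d/d MEF and 58608 to 77233 in fl/fl MEF, and to 38460 to 44709 with miR-290~295 and 60792 to 83426 with Empty. In OV, d/d and fl/fl B cells they summed to 180, 1118 and 247. Haematopoietic markers, 4 of 6 listed in MEF and 5 of 6 in B cells, summed to 0.365 to 2.47 RPM in MEF, against 10305, 17969 and 14620 in OV, d/d and fl/fl B cells.

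miR-140 was carried almost wholly by its 3p strand in MEF, and miR-455 was less abundant there than in B cells. The miR-455 strands ranked 170 to 295 in the MEF libraries, among 1204 or 1265 listed miRNAs, and 36 to 74 in the B cell libraries, among 756. In RPM, which is not corrected for how much of a library the miR-17~92 or miR-290~295 strands take up, miR-140-3p was highest in Empty MEF at 4805 ± 1033 (SD, n = 3). Below it stood d/d B cells at 4023, OV MEF at 3841 ± 127, d/d MEF at 2805 ± 139, fl/fl B cells at 2719, miR-290~295 MEF at 2631 ± 623, fl/fl MEF at 1662 ± 232 and OV B cells at 1487. In that order the libraries of d/d B cells and OV MEF, of OV MEF and d/d MEF, and of miR-290~295 MEF and fl/fl MEF did not overlap, and the other neighbours did. The sets were normalized separately, so levels across them are a description without a test.

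miR-140-5p had its highest level in d/d B cells, 511 RPM, followed by fl/fl B cells at 285 and OV B cells at 161. Over the MEF groups it was 156 ± 16.3 in d/d, 149 ± 18.9 in Empty, 142 ± 19.2 in OV, 127 ± 10.3 in miR-290~295 and 74.0 ± 3.98 in fl/fl (SD, n = 3 each). From OV B cells down to miR-290~295 MEF all neighbours overlapped, and fl/fl MEF stood below all of them.

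miR-455-5p reached 2570 RPM in fl/fl B cells, 2290 in OV B cells and 1219 in d/d B cells. Its MEF levels were 81.1 ± 12 in Empty, 61.1 ± 10.5 in fl/fl, 52.6 ± 0.97 in d/d, 40.6 ± 0.706 in OV and 33.8 ± 3.86 in miR-290~295 (SD, n = 3 each). Empty overlapped fl/fl, fl/fl overlapped d/d, and the lower neighbours did not overlap. For miR-455-3p the B cell levels were 1107 in fl/fl, 746 in OV and 544 in d/d. In MEF it was 47.4 ± 6.88 in fl/fl, 43.4 ± 4.22 in Empty, 38.4 ± 8.30 in d/d, 32.1 ± 8.62 in OV and 17 ± 1.09 in miR-290~295, where only the lowest 2 neighbours did not overlap. The lowest B cell level of either strand was above every MEF library. The marker miRNAs of both cell types differ between the same libraries, and their part in these levels was not tested.

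**Figure D1:**
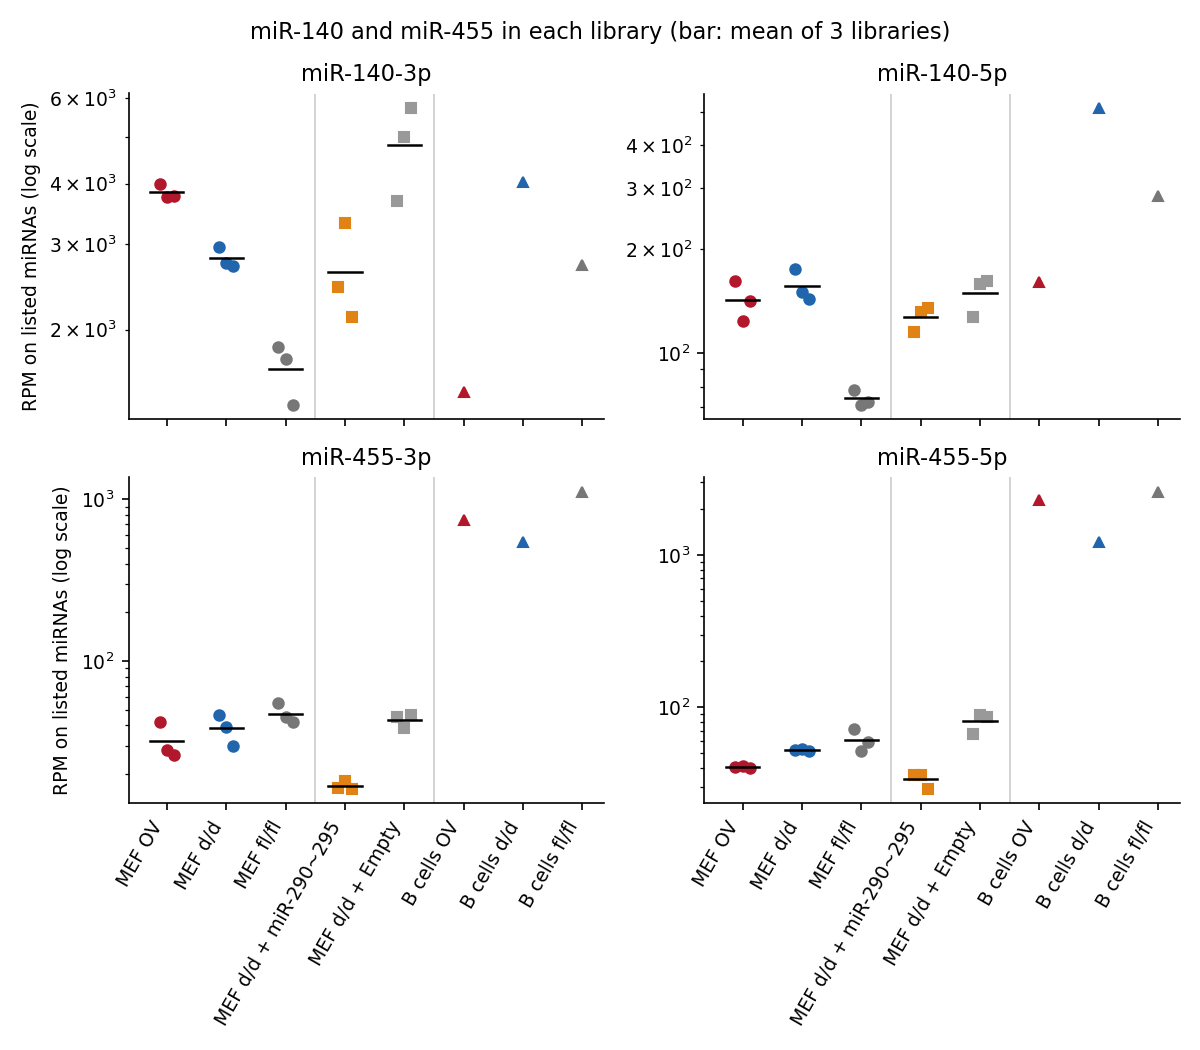
RPM (log scale) of each member in every library, by group, with a bar at the mean of 3 MEF libraries. miR-455-3p and miR-455-5p sit at 544 or above in the 3 B cell libraries, while their MEF group means lie between 17 and 81.1.

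Counted together over both strands, miR-140 outnumbered miR-455 in every MEF library but not in every B cell library. There were 55.1 ± 4.54 miR-140 reads per miR-455 read in OV MEF, 32.7 ± 2.06 in d/d MEF and 16.1 ± 2.31 in fl/fl MEF (SD, n = 3 each). The ratio was 54.0 ± 8.59 in miR-290~295 MEF and 39.5 ± 5.17 in Empty MEF. In B cells it was 0.543 in OV, 2.57 in d/d and 0.817 in fl/fl, so that miR-455 reads outnumbered miR-140 reads in OV and fl/fl. A ratio within a library does not depend on the library's scaling, and it does not say which of the miRNAs moved.

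With miR-17~92 overexpressed, both strands of miR-140 were higher and both strands of miR-455 lower than in floxed cells. miR-140-3p had 73211, 74876 and 71416 normalized counts in OV MEF, against 35081, 34939 and 27313 in fl/fl MEF. All OV libraries lay above all fl/fl libraries. The strand rose 2.27-fold (log2 change 1.18 ± 0.11 SE, adjusted p = 8.89e-05). Every MEF change here is from limma on log2 of the normalized count + 1, with Benjamini-Hochberg adjustment over all miRNAs kept, and is called where the adjusted p is under 0.05.

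miR-140-5p, the less abundant strand, had 2976, 2467 and 2666 normalized counts in OV MEF, against 1496, 1424 and 1415 in fl/fl MEF. The groups did not overlap, and the strand rose 1.87-fold (0.90 ± 0.12, adjusted p = 0.000525 by limma). miR-455-3p had 772, 562 and 495 normalized counts in OV MEF and 1050, 899 and 820 in fl/fl MEF. Again no OV library reached a fl/fl library, with a log2 change of -0.62 ± 0.20 (limma, adjusted p = 0.0371). miR-455-5p had 744, 825 and 755 in OV MEF, against 1378, 1037 and 1154 in fl/fl MEF, also without overlap, and its log2 change was -0.61 ± 0.14 (limma, adjusted p = 0.00861).

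All 4 members were thus called, where 31.3% of miRNAs (207 of 662) were called. Groups without overlap were found for 48.6% of miRNAs. Sums over markers of other cell types differed between these groups too. Epithelial markers (4 of 5 listed) summed to 3.04 to 3.37 RPM in OV MEF, against 10.5 to 11.3 in fl/fl MEF, muscle markers (2 of 3 listed) to 1315 to 1596 against 1775 to 1884, and neural markers (3 of 3 listed) to 539 to 612 against 704 to 826. The muscle sum was nearly all miR-206-3p and the neural sum nearly all miR-128-3p, while miR-1a-3p and miR-9-5p overlapped. Fibroblast and haematopoietic sums overlapped. Of the fibroblast list, miR-199a-5p (2291 to 2981 RPM in OV against 3520 to 4041 in fl/fl) and miR-10b-5p (24.4 to 31.5 against 39.1 to 43.3) were lower without overlap. The rest of that list overlapped, and the part of these markers in the changes was not tested. The miR-455 calls depended on the scaling. With the submitters' spike-in scaling the log2 changes were 1.32 and 1.04 for miR-140-3p and miR-140-5p, still called, and -0.48 (adjusted p = 0.120) and -0.47 (adjusted p = 0.0567) for miR-455-3p and miR-455-5p. The miR-455-3p call was also lost without either of 2 OV libraries or any 1 of the 3 fl/fl libraries (log2 change -0.70 to -0.48), and without 1 d/d library, which lends only to the estimate of the spread.

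Deletion of the cluster also went with more miR-140. miR-140-5p had 2931, 2725 and 2731 normalized counts in d/d MEF, against 1496, 1424 and 1415 in fl/fl MEF. It was 1.93-fold higher in d/d (log2 change 0.95 ± 0.12, adjusted p = 6.39e-05 by limma), with no overlap. miR-140-3p had 49699, 49730 and 51413 in d/d MEF and 35081, 34939 and 27313 in fl/fl MEF, a 1.56-fold difference (0.64 ± 0.11, adjusted p = 0.000658 by limma).

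For miR-455 the d/d libraries lay below the fl/fl libraries without passing the test. miR-455-3p had 776, 709 and 566 normalized counts in d/d MEF and 1050, 899 and 820 in fl/fl MEF (log2 change -0.44 ± 0.20, limma, adjusted p = 0.0759). miR-455-5p had 886, 968 and 980 in d/d MEF, against 1378, 1037 and 1154 in fl/fl MEF (-0.32 ± 0.14, limma, adjusted p = 0.0678). No strand's groups overlapped, which was so for 68.0% of miRNAs, and 2 of 4 members were called where 58.3% of miRNAs (386 of 662) were.

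In d/d MEF the epithelial markers summed to 1.48 to 2.03 RPM, against 10.5 to 11.3 in fl/fl MEF, and the muscle markers to 1083 to 1189 against 1775 to 1884. The sums of the other lists overlapped, but not all of their single markers did. In d/d, miR-199a-3p (4525 to 6574 RPM against 7930 to 9616) and miR-9-5p (3.91 to 4.11 against 4.89 to 6.52) were lower without overlap. miR-10b-5p was higher (95.0 to 110 against 39.1 to 43.3). The part of these markers was not tested. Of the members, miR-140-5p passed in d/d under each scaling, while the calls of the other 3 depended on it. With spike-in scaling the median over all miRNAs moved to -0.39, and the log2 changes were 0.21 (adjusted p = 0.261) for miR-140-3p, 0.52 (0.00686) for miR-140-5p, -0.87 (0.00462) for miR-455-3p and -0.75 (0.00202) for miR-455-5p by limma. A scaling of libraries shifts all miRNAs alike, so the distance of a change from the median is nearly fixed by construction. Without spike-in scaling it was 0.63 for miR-140-3p, 0.94 for miR-140-5p, -0.45 for miR-455-3p and -0.34 for miR-455-5p. OV and d/d were set against the same fl/fl libraries, so the likeness of the comparisons is no separate evidence.

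Between OV and d/d, the 2 strands of miR-140 parted. miR-140-3p, at 73211, 74876 and 71416 normalized counts in OV MEF and 49699, 49730 and 51413 in d/d MEF, was 1.46-fold higher in OV (log2 change 0.54 ± 0.11, adjusted p = 0.00196 by limma). miR-140-5p, at 2976, 2467 and 2666 in OV MEF and 2931, 2725 and 2731 in d/d MEF, overlapped (-0.05 ± 0.12, limma, adjusted p = 0.741). miR-455-3p overlapped too (-0.18 ± 0.20, adjusted p = 0.483 by limma). miR-455-5p was lower in every OV library than in every d/d library, but its log2 change of -0.29 ± 0.14 did not pass (limma, adjusted p = 0.110). Thus 1 of 4 members was called, where 52.4% of miRNAs (347 of 662) were called and 58.2% had groups without overlap.

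The direction of miR-140-5p between OV and d/d turned with spike-in scaling, under which the median of all miRNAs was 0.60. Its log2 change was then 0.51 (limma, adjusted p = 0.00719), and 0.10 (limma, adjusted p = 0.590) with library medians set equal. With spike-in scaling that of miR-140-3p was 1.11 (called), and those of miR-455-3p and miR-455-5p were 0.39 (adjusted p = 0.136) and 0.28 (adjusted p = 0.153), also turned in direction. The summed fibroblast and neural markers were lower in every OV library than in every d/d library, and the epithelial and muscle sums were higher. Single markers did not all follow their sum. miR-9-5p, of the neural list, was higher in OV (5.85 to 8.16 RPM) than in d/d MEF (3.91 to 4.11). Of the fibroblast list, miR-143-3p held most of the sum, while miR-199a-3p, miR-145a-5p and miR-214-3p overlapped. miR-206-3p held nearly all of the muscle sum, and miR-1a-3p overlapped. The part of these markers was not tested.

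**Figure D2:**
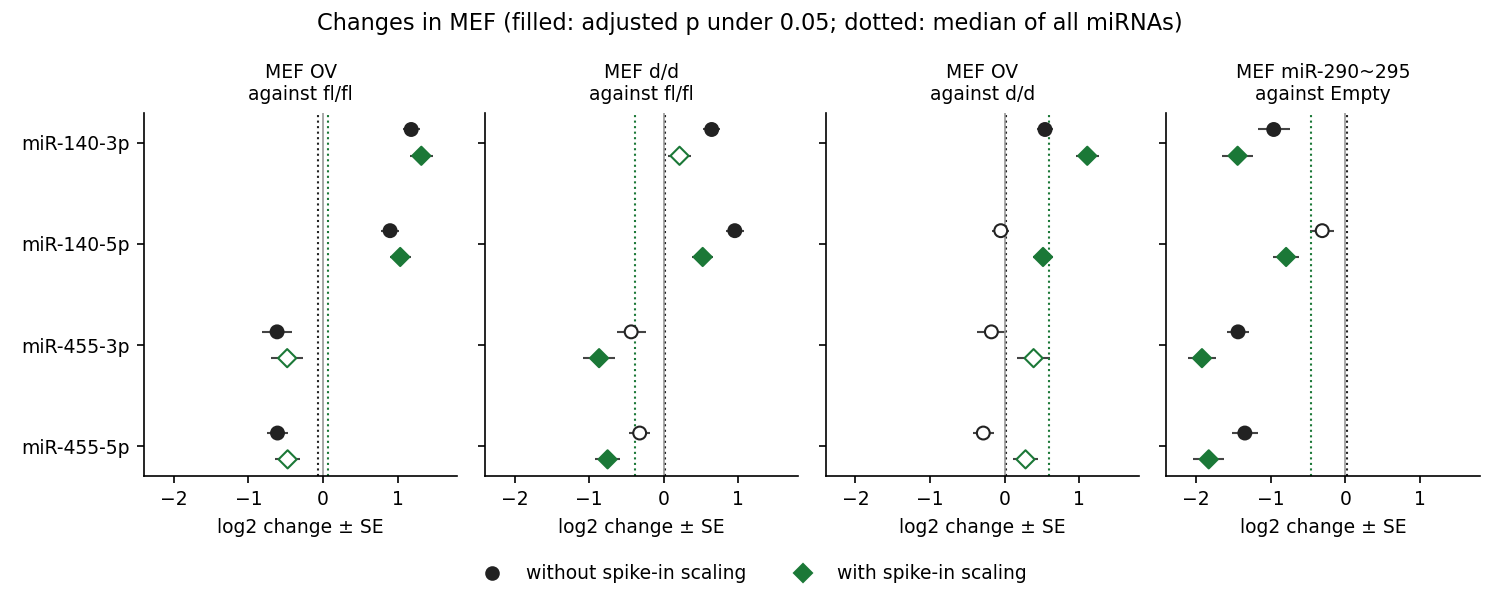
Log2 change ± SE of each member in the 4 MEF comparisons, without (circles) and with (diamonds) spike-in scaling, filled where the adjusted p is under 0.05; dotted lines mark the median of all miRNAs. miR-140-3p runs from -0.96 for miR-290~295 against Empty to 1.18 for OV against fl/fl without spike-in scaling.

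In deleted MEF, miR-290~295 went with less of both strands of miR-455 and less miR-140-3p. miR-455-3p had 779, 855 and 776 normalized counts with miR-290~295, against 2195, 2012 and 2345 with Empty. The groups were far apart, and the strand was 2.71-fold lower with miR-290~295 (log2 change -1.44 ± 0.15, adjusted p = 9.72e-05 by limma). miR-455-5p had 1713, 1681 and 1400 normalized counts with miR-290~295 and 3267, 4645 and 4399 with Empty, 2.55-fold lower (-1.35 ± 0.18, adjusted p = 0.000505 by limma).

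miR-140-3p had 115759, 155914 and 101289 normalized counts with miR-290~295, against 178939, 261142 and 289212 with Empty, a fold of 1.95 lower with miR-290~295 (log2 change -0.96 ± 0.21, limma, adjusted p = 0.00733) and no overlap. miR-140-5p had 5472, 6185 and 6432 with miR-290~295 and 6179, 8267 and 8153 with Empty. Its groups overlapped, and the log2 change of -0.31 ± 0.16 did not pass (limma, adjusted p = 0.149). Of the members 3 of 4 were called, where 38.9% of miRNAs (327 of 840) were, and 49.6% of miRNAs had groups without overlap. The fibroblast sum (38460 to 44709 RPM with miR-290~295, against 60792 to 83426 with Empty) was lower with miR-290~295, without overlap. So was the muscle sum (950 to 1109 against 1236 to 1721), and the epithelial sum was higher (2.35 to 2.74 against 1.07 to 2.04). Single markers did not all follow, as miR-199a-3p, miR-10b-5p and miR-1a-3p overlapped, and of the epithelial list only miR-200b-3p did not. The part of these markers in the falls was not tested. Only 8.93% of miRNAs had a larger change in either direction than miR-455-3p, and 11.5% had a larger one than miR-455-5p. With spike-in scaling, where the median was -0.46, the changes were -1.45, -0.80, -1.92 and -1.83 for miR-140-3p, miR-140-5p, miR-455-3p and miR-455-5p, all 4 called (miR-140-5p at adjusted p = 0.00207).

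Scaling moved the balance of calls over all miRNAs as well. Higher and lower calls numbered 103 and 104 without and 112 and 44 with spike-in scaling for OV against fl/fl, 203 and 183 against 147 and 283 for d/d against fl/fl, 177 and 170 against 333 and 120 for OV against d/d, and 140 and 187 against 56 and 331 for miR-290~295 against Empty. With library medians set equal they were 83 and 153, 162 and 245, 208 and 142, and 107 and 211 in the same order of comparisons.

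The balance of the strands, which no scaling of libraries can move, separated the genes. The 3p strand held 96.4% ± 0.359 of miR-140 reads in OV MEF, 94.7% ± 0.270 in d/d MEF and 95.7% ± 0.539 in fl/fl MEF, and 95.2% ± 1.10 in miR-290~295 MEF and 97.0% ± 0.298 in Empty MEF (SD, n = 3 each). miR-455 was less one-sided, with the 5p strand ahead in all MEF libraries but 1 OV library, most so in the second set. Its 3p share was 43.7% ± 6.28 in OV MEF, 41.9% ± 5.06 in d/d MEF, 43.7% ± 2.49 in fl/fl MEF, 33.5% ± 2.20 in miR-290~295 MEF and 35.1% ± 4.99 in Empty MEF (SD, n = 3 each).

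Per library, miR-140 had 24.6, 30.3 and 26.8 reads of 3p per read of 5p in OV MEF, 17, 18.2 and 18.8 in d/d MEF and 23.5, 24.5 and 19.3 in fl/fl MEF. OV was highest and d/d lowest, with no overlap between any 2 of the 3 groups. The nearest libraries of neighbouring groups did not differ beyond counting error, however. By Clopper-Pearson 95% intervals, the 3p share was 95.95 to 96.23% in the lowest OV and 95.87 to 96.30% in the highest fl/fl library. It was 94.80 to 95.34% in the lowest fl/fl and 94.76 to 95.14% in the highest d/d library. In the second set the ratio was 21.2, 25.2 and 15.7 with miR-290~295 and 29.0, 31.6 and 35.5 with Empty, again without overlap. Among all hairpins the ratios did not overlap in 21.1% for OV against fl/fl, 35.4% for d/d against fl/fl, 28% for OV relative to d/d and 19.8% with miR-290~295 relative to Empty. The log2 ratio differed by 0.59 ± 0.15 between OV and d/d, and this passed when limma was run over the log2 ratios of all hairpins (adjusted p = 0.0452), where 6.29% of hairpins (11 of 175) passed.

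That call was a narrow one. It was lost when any 1 of 8 of the 9 libraries was left out (adjusted p 0.0484 to 0.119 over all 9), and in 4 other alternatives, while the size stayed between 0.51 and 0.66. The differences of 0.28 ± 0.15 for OV against fl/fl (limma, adjusted p = 0.407), -0.31 ± 0.15 for d/d against fl/fl (0.219) and -0.65 ± 0.22 for miR-290~295 against Empty (0.220) did not pass. An exact two-sided permutation test of 3 against 3 libraries gave p = 0.1 for miR-140 in all 4 comparisons, the smallest it can give.

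For OV against fl/fl limma called 0% of hairpins (0 of 175), although 21 had an unadjusted p under 0.05. The shares called were 9.14% (16 of 175) for d/d against fl/fl and 1.29% (3 of 232) for miR-290~295 against Empty. The strand balance of miR-455 differed by -0.01 ± 0.25 in OV and -0.11 ± 0.25 in d/d relative to fl/fl, by 0.11 ± 0.25 in OV relative to d/d, and by -0.09 ± 0.25 with miR-290~295 relative to Empty. None was called (limma, adjusted p = 0.987, 0.819, 0.806 and 0.920 in that order). Its exact permutation p was 1, 0.7, 0.7 and 0.8 in the same order, with overlap each time.

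Larger shifts than those of miR-140 were seen in other hairpins. In d/d against fl/fl the log2 ratio of 3p to 5p was 1.52 ± 0.19 higher for let-7b and 1.46 ± 0.33 higher for miR-20a, and it fell by 1.44 ± 0.23 for miR-23a and by 1.18 ± 0.32 for miR-18a. For OV against d/d it was 2.56 ± 0.61 higher for miR-500 and 1.47 ± 0.27 higher for miR-362, and it fell by 1.57 ± 0.33 for miR-20a and by 1.41 ± 0.19 for let-7b. miR-20a and miR-18a are members of the miR-17~92 cluster itself, whose strands together summed to only 1419 to 1709 normalized counts in d/d MEF. For miR-290~295 against Empty the called hairpins were miR-294 at 2.68 ± 0.43, miR-290a at -3.57 ± 0.68 and miR-291b at -3.33 ± 0.64, all of the introduced cluster. In Empty MEF its 14 listed strands together summed to only 1580 to 2065 normalized counts. The + 1 added before the log draws a ratio toward 0 where a strand is that low. Its part in the shifts of hairpins from these 2 clusters was not tested.

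**Figure D3:**
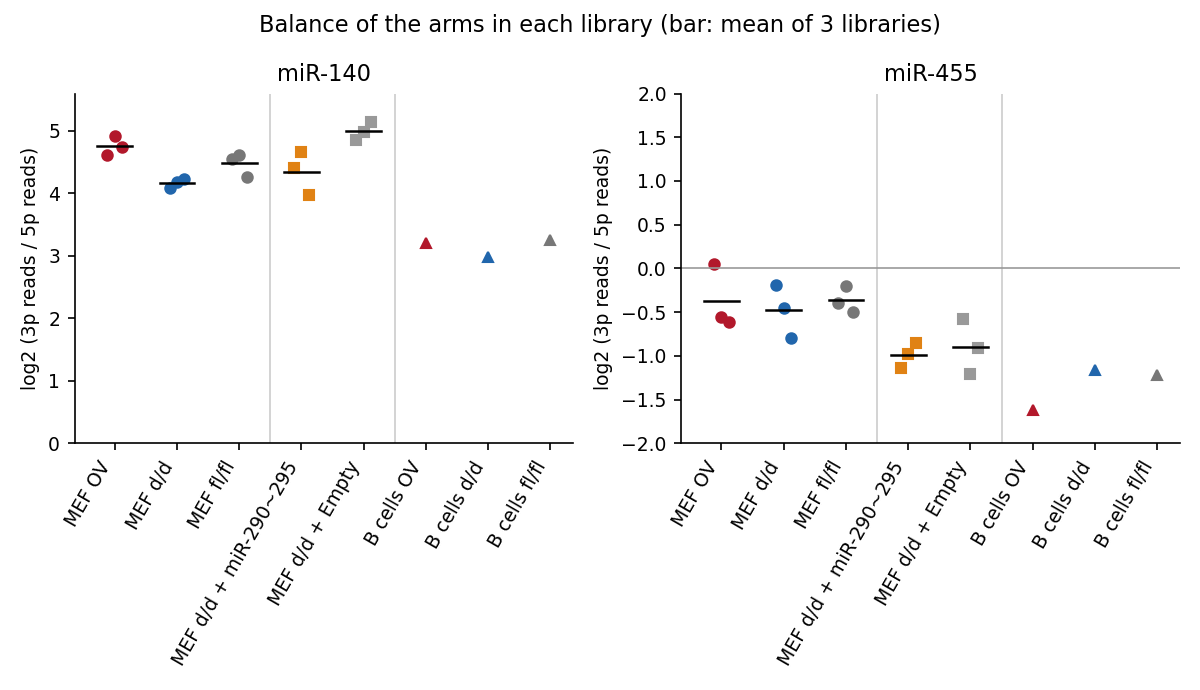
Log2 of 3p reads over 5p reads of each hairpin in every library, by group, with a bar at the mean of 3 MEF libraries. miR-140 lies well above 0 everywhere, highest in Empty and OV MEF and lowest in B cells, while miR-455 lies at or below 0 in all libraries but 1 OV library.

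In B cells each group is 1 library, so there is no test, and the exact Poisson 95% intervals cover counting error only. miR-140-3p had 20324 normalized counts (20002 to 20650) in OV, 33771 (33450 to 34093) in d/d and 27199 (26886 to 27515) in fl/fl. miR-140-5p had 2198 (2093 to 2307) in OV, 4287 (4174 to 4403) in d/d and 2850 (2749 to 2953) in fl/fl. Both strands were lowest in OV and highest in d/d, beyond counting error.

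miR-455 had another order. miR-455-3p had 10192 normalized counts (9964 to 10423) in OV, 4569 (4452 to 4689) in d/d and 11080 (10881 to 11282) in fl/fl B cells. miR-455-5p had 31307 (30907 to 31712) in OV, 10232 (10057 to 10411) in d/d and 25714 (25410 to 26021) in fl/fl. The d/d library was 2.42-fold lower for miR-455-3p and 2.51-fold lower for miR-455-5p than the fl/fl library. These were the 2 of 4 members past 2-fold in d/d, where 34.2% of miRNAs (163 of 476) were. None of the 4 was past 2-fold in OV, where 12.6% (60 of 476) were, with log2 differences from fl/fl of -0.42 for miR-140-3p, -0.37 for miR-140-5p, -0.12 for miR-455-3p and 0.28 for miR-455-5p. In RPM the OV differences were -0.87, -0.82, -0.57 and -0.17 in the same order, so the direction of miR-455-5p in OV turned with the scaling. The d/d differences kept their signs in RPM, at 0.57, 0.84, -1.02 and -1.08.

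The fibroblast markers summed to 1118 RPM in d/d B cells, against 247 in fl/fl B cells, and the part of this in the member differences was not tested.

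The strand balance was less one-sided for miR-140 in B cells than in MEF. Its 3p share was 90.2% (Clopper-Pearson 95% interval 89.8 to 90.7) in OV, 88.7% (88.4 to 89.0) in d/d and 90.5% (90.2 to 90.8) in fl/fl, below each of the 15 MEF libraries. The 3p share of miR-455 was 24.6% in OV, 30.9% in d/d and 30.1% in fl/fl B cells, so its 5p strand was further ahead there than in the first MEF set. The log2 ratio of 3p to 5p differed from fl/fl by -0.05 in OV and by -0.28 in d/d for miR-140, and by -0.40 in OV and 0.05 in d/d for miR-455. None was past 2-fold, where 10.6% of hairpins (12 of 113) were in OV and 13.3% (15 of 113) in d/d.

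**Figure D4:**
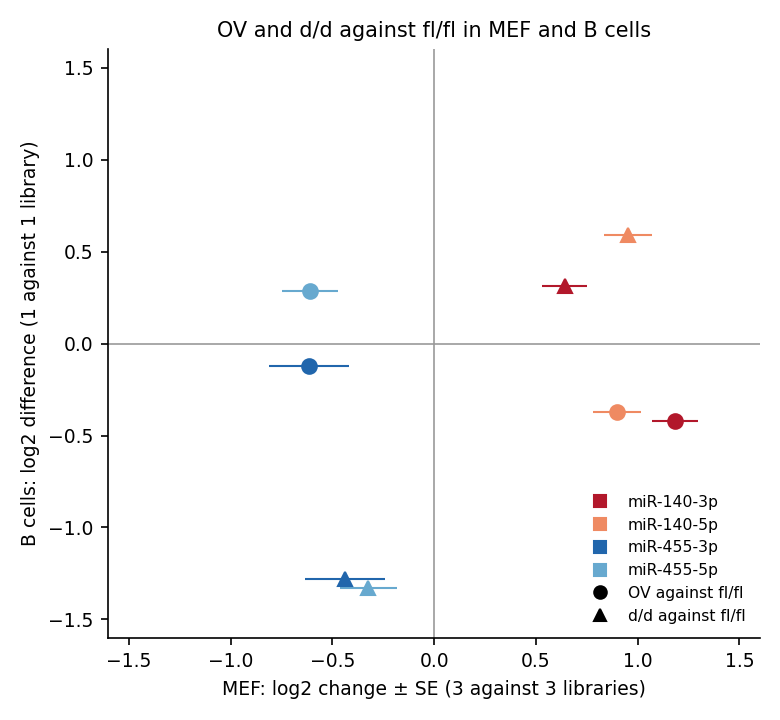
Log2 change ± SE in MEF (3 against 3 libraries, x axis) and log2 difference in B cells (1 against 1 library, y axis) of each member, for OV (circles) and d/d (triangles) against fl/fl. In d/d all 4 members lie on the same side of 0 in both cell types, while in OV miR-140-3p, miR-140-5p and miR-455-5p lie on opposite sides, for miR-455-5p with size factors (0.28) but not in RPM (-0.17).

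For each member, the miRNAs with the most similar pattern were taken by Pearson correlation of log2 values within a MEF set, over libraries that share their groups and scaling. The 3 highest were picked from 662 kept miRNAs in the first set and 840 in the second. That choice favours high values, and none was tested. The 9 libraries of the first set fall into the OV, d/d and fl/fl groups. Over the 9 libraries of the first set, miR-140-3p was most like miR-129-5p (r = 0.95), miR-152-3p (0.91) and miR-322-5p (0.89). miR-140-5p was most like miR-466f-3p (0.98), miR-467a-5p and miR-467b-5p (0.98 each, with identical values). miR-455-3p was most like miR-34a-5p (0.90), miR-652-3p (0.84) and miR-125b-2-3p (0.83), and miR-455-5p like miR-128-3p (0.91), miR-3081-3p (0.90) and miR-99a-5p (0.89). The other strand of the same hairpin came lower, at 0.84 for miR-140 and 0.70 for miR-455.

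Over the 6 libraries of the second set, miR-140-3p was most like miR-210-3p, miR-329-5p and miR-582-3p (r = 0.995, 0.993 and 0.99), and miR-140-5p like miR-378c, miR-542-3p and miR-708-3p (0.96 to 0.97). miR-455-3p was most like miR-667-5p, miR-376c-3p and miR-673-3p, and miR-455-5p like miR-381-3p, miR-758-3p and miR-361-3p (all 0.995 or above). The other strand stood at 0.84 for miR-140 and 0.96 for miR-455. These 6 libraries fall into only 2 groups.

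Of 27 other miRNAs linked to cartilage, 24 were tested in each comparison of the first set and 27 in the second. For OV against fl/fl 4 rose and 4 fell, with a median log2 change of -0.05 (all miRNAs -0.07). These 8 are 33.3% of the list, near the 31.3% called among all miRNAs. The largest rises were 1.51 ± 0.15 for miR-146a-5p, an inflammation-linked miRNA that averaged 4378 ± 801 normalized counts in OV and 1519 ± 77.0 in fl/fl, and 1.35 ± 0.21 for miR-322-5p. The largest falls were -0.62 ± 0.11 for miR-199a-5p, a mesenchymal miRNA, and -0.58 ± 0.19 for miR-221-3p. For d/d against fl/fl 3 rose and 10 fell, 54.2% of the list where 58.3% of all miRNAs were called (median -0.31, all miRNAs 0.02), led by 4.32 ± 0.40 for miR-483-5p, from an intron of Igf2, and 0.97 ± 0.21 for miR-322-5p. miR-483-5p averaged 305 ± 12.8 normalized counts (SD) in d/d and only 14.8 ± 4.57 in fl/fl, so the size of its rise rests on low fl/fl counts. The falls were led by -1.24 ± 0.13 for miR-210-3p, a hypoxia-induced miRNA, and -1.17 ± 0.19 for miR-221-3p.

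For OV against d/d 12 of the list rose and 4 fell, 66.7% of it where 52.4% of all miRNAs were called (median 0.39, all miRNAs 0.02). miR-146a-5p (1.76 ± 0.15) and miR-29b-3p (1.67 ± 0.51) had the largest rises, and miR-483-5p (-5.16 ± 0.40) and miR-337-3p (-4.06 ± 1.05) the largest falls. miR-483-5p averaged only 8.50 normalized counts in OV, against 305 in d/d, and miR-337-3p only 6.94 against 49.7. The sizes of both falls thus rest on low OV counts, and for miR-337-3p the SD in OV was above the mean. For miR-290~295 against Empty 4 rose and 11 fell, 55.6% where 38.9% of all miRNAs were called (median -0.24, all miRNAs 0.02). miR-221-3p (1.18 ± 0.14) and miR-483-5p (1.01 ± 0.19) rose most, and miR-146a-5p (-2.19 ± 0.20) and miR-193b-3p (-1.92 ± 0.35) fell most. With spike-in scaling the list's higher and lower calls were 4 and 2 for OV relative to fl/fl, 1 and 14 for d/d relative to fl/fl, 16 and 2 for OV relative to d/d, and 1 and 15 with miR-290~295 relative to Empty. Every miRNA of the list named here kept its direction, but miR-221-3p in OV relative to fl/fl (adjusted p = 0.133 by limma), miR-322-5p in d/d relative to fl/fl (0.0542) and miR-483-5p with miR-290~295 (0.0681) were then not called.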

How the data were processed

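Per the labels' protocols, total RNA received spike-ins, its small RNA was purified on a gel, and NEBNext small RNA libraries were prepared. The deposited values are a signal, read counts divided by 1 size factor per library. The submitters' processing notes name DESeq2, with the aligner, counter, annotation and build not given in the sources used here. Both MEF sets were deposited with and without spike-in scaling. The 33 transformed columns were not used. Overexpressed and floxed MEF columns carry numbers that do not match the labels' replicates, and were used by group. Whole reads were recovered from every library (100% of values within 0.0001).

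The kept miRNAs averaged 10 normalized counts or more over a table (662 and 840 without, 665 and 846 with spike-in scaling, 476 in B cells). The values are not counts, so log2(value + 1) was tested with limma (version 3.58.1, R 4.3.3; trend option on), fitted over all libraries of a table. Strand balance was limma on the difference of the log2 values of 3p and 5p over all hairpins with both strands kept. Its trend was set on the hairpin's mean level after a fit with the mean ratio had been seen, and that fit is kept as an alternative. edgeR 4.0.16 and DESeq2 1.42.0 were run on the recovered reads as alternatives; of miRNAs they called 182 and 237 for OV against fl/fl, 391 and 402 for d/d against fl/fl, 350 and 350 for OV against d/d, and 327 and 348 for miR-290~295 against Empty. The code was tested on simulated data.

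Named miRNAs are the 4 members, the 3 most correlated miRNAs per member and MEF set, listed miRNAs sharing a seed, the 2 largest called rises and falls of the cartilage list per comparison, and the 2 hairpins with the largest called shift each way. Members and lists were chosen with earlier results of these data known. Sequences and host genes come from RefSeq and GENCODE (GRCm38), which were matched by name and used with no coordinates from the deposited tables.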

Additional observations from a re-analysis of the deposited data

Results flagged for a closer look

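For OV against fl/fl, 3 of the 4 members had opposite signs in MEF and B cells. miR-140-3p had a log2 difference of -0.42 in B cells and a log2 change of 1.18 ± 0.11 SE in MEF, where every OV library lay above every fl/fl library. miR-140-5p had -0.37 in B cells and 0.90 ± 0.12 in MEF. miR-455-5p had 0.28 in B cells and -0.61 ± 0.14 in MEF, but in RPM its B cell difference was -0.17, the same sign as in MEF. In RPM the B cell differences of miR-140-3p (-0.87) and miR-140-5p (-0.82) kept their sign. With 1 B cell library a group, the difference between the cell types was not tested.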

How the results depend on the processing

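Over all alternatives, 372 of 422 recomputed values of the members and their strand balance kept their direction and side of the threshold, 25 lost a call, 13 gained one and 12 changed sign. For OV relative to d/d, miR-140-5p (0.51, called), miR-455-3p (0.39) and miR-455-5p (0.28) changed sign with spike-in scaling, and miR-140-5p (0.10) with library medians set equal; none but the first was called. With spike-in scaling, the calls of miR-455-3p (-0.48) and miR-455-5p (-0.47) for OV against fl/fl were lost. So was the call of miR-140-3p (0.21) for d/d against fl/fl. Spike-in scaling also gained calls of miR-455-3p (-0.87) and miR-455-5p (-0.75) for d/d against fl/fl and of miR-140-5p (-0.80) for miR-290~295 against Empty. The changed median of all miRNAs, given in the text, moved with them. With library medians set equal, d/d against fl/fl gave 0.36 for miR-140-3p (lost), -0.72 for miR-455-3p and -0.61 for miR-455-5p (gained). For OV against fl/fl, miR-455-3p lost its call without the mean-variance trend (-0.62), in edgeR (-0.55) and with only the 2 groups fitted (-0.62). For d/d against fl/fl, miR-455-5p gained a call at a minimum mean of 100 (-0.32), in DESeq2 (-0.35) and with only the 2 groups (-0.32), as did miR-455-3p there (-0.44). The miR-140 strand balance for OV against d/d, 0.59 each time, lost its call with no minimum, with no trend, with only the 2 groups and with the trend on the mean log2 ratio, which was added after seeing the data; the cause was not tested.

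Leaving out 1 library at a time gave -0.80 to -0.48 for miR-455-3p in OV against fl/fl, -0.54 to -0.31 for miR-455-3p and -0.42 to -0.21 for miR-455-5p in d/d against fl/fl, 0.51 to 0.66 for the miR-140 strand balance and -0.12 to 0.012 for miR-140-5p in OV against d/d, and -0.45 to -0.24 for miR-140-5p in miR-290~295 against Empty. The strand balance of miR-455, never called, changed sign in each comparison, with -0.22 to 0.11 for OV and -0.26 to 0.043 for d/d relative to fl/fl, -0.10 to 0.25 for OV relative to d/d and -0.25 to 0.070 for miR-290~295 relative to Empty. Calls over all miRNAs ran from 124 (without FL5) to 233 for OV against fl/fl. Hairpins called ran from 0 to 1 for OV against fl/fl, 2 to 20 for d/d against fl/fl, 1 to 11 for OV against d/d and 0 to 3 for miR-290~295 against Empty. In the other alternatives they were 5 with a pseudocount of 0.5, 9 with no minimum, 2 with no trend and 3 with the trend on the ratio for d/d against fl/fl; 18 with a pseudocount of 5 and 2 with only the 2 groups for OV against d/d; and 0 with a pseudocount of 0.5 or a minimum of 100 for miR-290~295 against Empty.

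With the replicate number as a block for miR-290~295 against Empty, 298 miRNAs were called, against 327 without, and no member changed its call. Deviations of same-numbered libraries from their group means correlated at 0.28, 0.01 and -0.26, and those of differently numbered libraries at -0.38 to 0.39. With 3 libraries a group, these values cannot show whether the numbers pair the samples. For the first MEF set no paired analysis was possible because the OV and fl/fl columns carry no label number.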
